A study of Mus musculus with 15 samples.

Results

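The genes described here are Gclc, Gclm, Txnrd1, Srxn1, Nqo1, Gsta4, Hmox1, Sod2, Cat and Gpx3, a list of 10 genes of the NRF2 and antioxidant response. They were taken by symbol, as a list of names, from the 39179 Ensembl genes counted in mouse submandibular gland. All 10 were matched, and all 10 were among the 14300 genes with enough reads to be tested.

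NRF2, encoded by Nfe2l2, is a transcription factor that is held low in unstressed cells by KEAP1, which delivers it to a CUL3 ubiquitin ligase. Oxidants and electrophiles modify KEAP1, and NRF2 then accumulates, pairs with small MAF proteins and binds antioxidant response elements in genes for glutathione synthesis, thioredoxin recycling, quinone reduction and heme breakdown. Ionizing radiation produces reactive oxygen species, and the salivary glands are damaged by radiotherapy of the head and neck.

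The glands came from adult male wild-type C57BL/6 mice. In the NT group the animals were not treated. The IR group was taken 7 days after local irradiation of the gland, and the groups IR+GFP, IR+Gli1 and IR+Shh were also irradiated and received a transfer of GFP, Gli1 or Shh into the submandibular gland. Shh is a ligand of the Hedgehog pathway, Gli1 is a transcription factor at its end, and GFP is a fluorescent protein that serves as the transfer control. The labels do not give the vector or the species of the transferred genes, and they do not say whether each library came from a separate animal, so the p-values measure the spread between these samples, which may be technical. IR+GFP is irradiated as well, and IR+Gli1 and IR+Shh were therefore compared with it. Reads of mouse Gli1 stood at 0.540 and 0.672 CPM in IR+Gli1, 2.69 and 4.24 in IR+Shh, and 0.514 to 0.768 in the other groups, and Shh had 0 reads in every sample, which allows up to 3 reads. The labels of the transferred groups could thus not be checked on the mouse genes, and group names below are those of the labels.

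The 15 libraries, 3 per group, held 18205941 to 41064723 reads assigned to genes. In each group 2 libraries differed by less than the sampling noise of their reads and were counted as 1 sample, which left 2 samples per group and 10 in all (NT 1, NT 2-3, IR 1-2, IR 3, IR+GFP 1-2, IR+GFP 3, IR+Gli1 1-2, IR+Gli1 3, IR+Shh 1-3 and IR+Shh 2). Levels are given in CPM, read counts scaled to library size with TMM factors between samples, and a gene is called changed where edgeR's quasi-likelihood test gave a Benjamini-Hochberg adjusted p under 0.05 over all 14300 genes. The markers of submandibular gland were abundant: the 9 listed genes of the granular convoluted tubule, led by Egf, summed to 189535 to 197630 CPM in NT. Sublingual gland markers summed to 34464 CPM in NT 2-3 and to 3.91 CPM in NT 1, so the differences of IR from NT named below are also given without NT 2-3. The TMM factors of IR+Gli1 were 1.72 and 1.31, against 0.865 to 0.994 in the other samples. Total-count scaling would move the median of all genes in IR+Gli1 against IR+GFP by 0.79 on the log2 scale, so every change below is a change relative to the bulk of the genes. Of the reads in each table, 8.22% in IR+GFP 3 and 7.53% in IR+Gli1 3 had several alignments. In the other libraries it was 2.89% to 4.79%. Without IR+GFP 3 and IR+Gli1 3 only 1 sample was left in each of these groups. The log2 differences of IR+Gli1 from IR+GFP were then -1.43 for Gclc, 1.80 for Hmox1 and 1.03 for Gpx3.

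Start-site sequence was taken from RefSeq for 7 of the 10 genes in 9 windows of 250 bases before the start (GRCm38.p6); those of Hmox1, Gclc and Gsta4 were not analysed here. The windows were searched on both strands for TGACNNNGC, the core of the antioxidant response element, and TGANTCAGC, which joins it to an AP-1 type sequence; letters that fit both motifs would count for each. Of 32851 windows in the table, 10.2% held the first motif and 1.02% the second. The motif was found in Gclm, Srxn1 and 1 of the 3 windows of Txnrd1, which are shown because they are the windows of these genes that hold it. Capitals mark the motif letters, and the sequences are given 5′ to 3′ on the gene's strand (+). The stretch is chr3:122245307-122245556 for Gclm, chr2:152105274-152105515 for Srxn1 and chr10:82858956-82859178 for Txnrd1, where the last 8 bases of the Srxn1 window and the last 27 of the Txnrd1 window are left out because GENCODE places an exon of the gene there.
Gclm: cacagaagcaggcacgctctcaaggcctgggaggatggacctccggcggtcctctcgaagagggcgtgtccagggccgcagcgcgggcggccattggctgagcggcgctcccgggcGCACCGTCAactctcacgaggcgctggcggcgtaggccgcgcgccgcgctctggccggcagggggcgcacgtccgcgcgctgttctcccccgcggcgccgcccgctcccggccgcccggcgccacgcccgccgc
Srxn1: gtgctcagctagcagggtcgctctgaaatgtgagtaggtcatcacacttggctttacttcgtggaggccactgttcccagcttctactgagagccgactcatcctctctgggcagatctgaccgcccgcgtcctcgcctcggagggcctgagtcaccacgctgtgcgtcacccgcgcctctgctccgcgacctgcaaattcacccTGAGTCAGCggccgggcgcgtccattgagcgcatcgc
Txnrd1: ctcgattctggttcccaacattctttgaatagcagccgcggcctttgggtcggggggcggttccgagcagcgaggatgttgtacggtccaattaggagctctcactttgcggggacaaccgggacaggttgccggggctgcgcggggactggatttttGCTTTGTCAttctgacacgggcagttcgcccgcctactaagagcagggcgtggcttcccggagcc

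In Srxn1 the letters TGAGTCAGC lay on the gene's strand, 45 to 37 bases before the start. In Gclm and Txnrd1 the motif lay on the opposite strand, 134 to 126 and 92 to 84 bases before the start. The windows of Nqo1, Cat, Gpx3 and Sod2 held neither motif, which says only that these letters are not in these 250 bases. Of 75 other antioxidant genes with a window, 17 held either motif. Either motif lay in 10.75% of all windows, but that share counts windows and not genes. A gene can have several windows, so the count of genes cannot be compared with it. None of the 3 genes Srxn1, Gclm and Txnrd1 passed the test in any of the 5 comparisons described below. In these comparisons 0.00% to 13.9% of all genes passed. At such shares 3 genes are too few to tell whether genes with the motif differ from others.

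Per kilobase of exon, Cat was the most abundant of the 10 genes, with a median level of 62.1 CPM per kb over the 10 samples. The length used was that of all annotated exons of a gene together, such as 10008 bases for Sod2, 6291 for Gclm and 2613 for Cat. The order thus depends on the annotation and is not one of transcript numbers. By the same medians Gclc at 14.2, Sod2 at 13.1, Txnrd1 at 8.72, Gsta4 at 7.48, Srxn1 at 7.24, Hmox1 at 4.29, Gpx3 at 3.27 and Gclm at 2.44 CPM per kb followed. Medians over groups that differ do not give the order within each: Gclc was above Sod2 in IR and IR+GFP (21.0 and 13.3, and 18.9 and 14.7 CPM per kb) and below it in NT and IR+Gli1 (11.9 and 12.6, and 7.91 and 11.7). Nqo1 was lowest at 0.653 CPM per kb and rested on 10 to 70 reads per sample. The genes also differed in how far they varied: the highest sample of Txnrd1 was 1.19 times its lowest, while Hmox1 spanned 3.50 times, Gpx3 3.32 times and Gclc 3.08 times, and Nqo1 at its low counts the most.

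**Figure D1:**
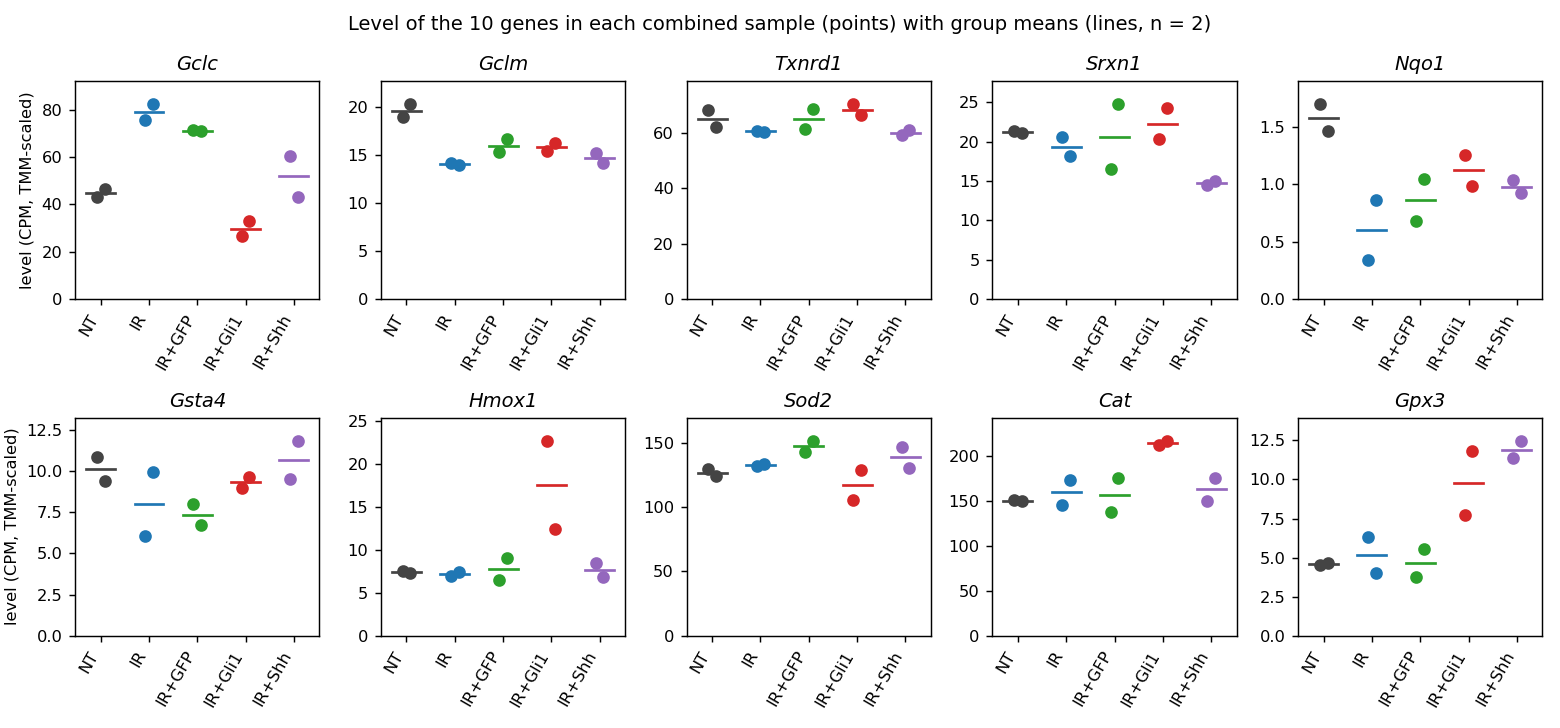
Level of each of the 10 genes (CPM after TMM scaling, axes from 0) in the 10 combined samples, with points for samples and lines for the group means of 2 samples. Gclc is high in IR and IR+GFP and low in IR+Gli1, Hmox1 and Cat are highest in both IR+Gli1 samples, and Gpx3 is highest in IR+Gli1 and IR+Shh.

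Glutamate cysteine ligase makes the first and rate-limiting step of glutathione synthesis, and its catalytic subunit is encoded by Gclc (ENSMUSG00000032350, chr9:77754535-77794485, + strand, GRCm38). Gclc stood at 43.1 and 46.3 CPM in the NT samples, 75.8 and 82.3 in IR, 71.4 and 71.1 in IR+GFP, 26.7 and 32.9 in IR+Gli1, and 60.7 and 43.1 in IR+Shh. Both irradiated groups without Hedgehog genes lay above NT with no overlap, IR+Gli1 lay below every other sample, and the IR+Shh samples were spread from the NT level upward. In order of the group means, IR at 79.1 ± 4.6, IR+GFP at 71.2 ± 0.20, IR+Shh at 51.9 ± 12.4, NT at 44.7 ± 2.3 and IR+Gli1 at 29.8 ± 4.4 CPM (SD, n = 2) followed each other. Of these neighbours, the samples of IR+Shh and NT overlapped, and the others did not.

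Gclc fell in IR+Gli1 against IR+GFP by 1.26 ± 0.16 on the log2 scale (SE), a 2.40-fold lower level, with an adjusted p of 0.00311 in edgeR. Gclc was 1.75-fold higher in IR+Shh than in IR+Gli1 (log2 0.80 ± 0.16, edgeR adjusted p 0.0219). Both calls ended where edgeR was fitted on only the samples compared, with log2 differences of -1.27 (adjusted p 0.0645) and 0.82 (0.108). The first call held in each of 4 fits that left out 1 sample of the groups compared. The second ended without IR+Gli1 1-2 (adjusted p 0.126), without IR+Shh 1-3 (0.162) or without IR+Shh 2 (0.0857), and with total-count scaling, which lowered the log2 difference to 0.17 (0.376). In IR against NT the difference was 0.82 ± 0.16 (edgeR adjusted p 0.0576), or 0.87 with an adjusted p of 0.173 without NT 2-3. DESeq2 gave 0.83 with an adjusted p of 0.000344 for it.

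The modifier subunit, encoded by Gclm (ENSMUSG00000028124, chr3:122245557-122270732, + strand), makes the enzyme more active at cellular glutamate and less open to feedback by glutathione. Gclm stood at 18.9 and 20.2 CPM in NT, 14.1 and 14.0 in IR, 15.3 and 16.6 in IR+GFP, 15.4 and 16.2 in IR+Gli1, and 15.2 and 14.1 in IR+Shh. NT was above all 8 irradiated samples, which lay within 14.0 to 16.6 CPM. The log2 difference of IR from NT was -0.48 ± 0.10 (edgeR adjusted p 0.0806), or -0.43 with an adjusted p of 0.239 without NT 2-3. The difference of IR+Gli1 from IR+GFP was -0.01 ± 0.11, and it turned to 0.77 with total-count scaling.

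The reads of the 2 subunits were also set against each other within each sample, where scaling cancels. There were 2.28 and 2.29 Gclc reads per Gclm read in NT, 5.37 and 5.90 in IR, 4.68 and 4.28 in IR+GFP, 1.73 and 2.03 in IR+Gli1, and 4.0 and 3.05 in IR+Shh. The ratio was thus above the range of the 2 NT samples in IR, IR+GFP and IR+Shh and below it in IR+Gli1. In each of the 5 comparisons the groups did not overlap, but the comparisons share groups and are not independent. Among the levels of all genes, 16.9% were higher and 15.9% lower without overlap in IR+GFP against IR. In IR+Shh against IR+Gli1 it was 28.8% and 29.7%. The mean was 5.63 ± 0.38 in IR against 2.29 ± 0.0041 in NT, and 1.88 ± 0.21 in IR+Gli1 against 4.48 ± 0.28 in IR+GFP (SD, n = 2). An exact two-sided permutation test gave p = 0.333 for each comparison, which is the smallest p that 2 samples against 2 allow.

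**Figure D2:**
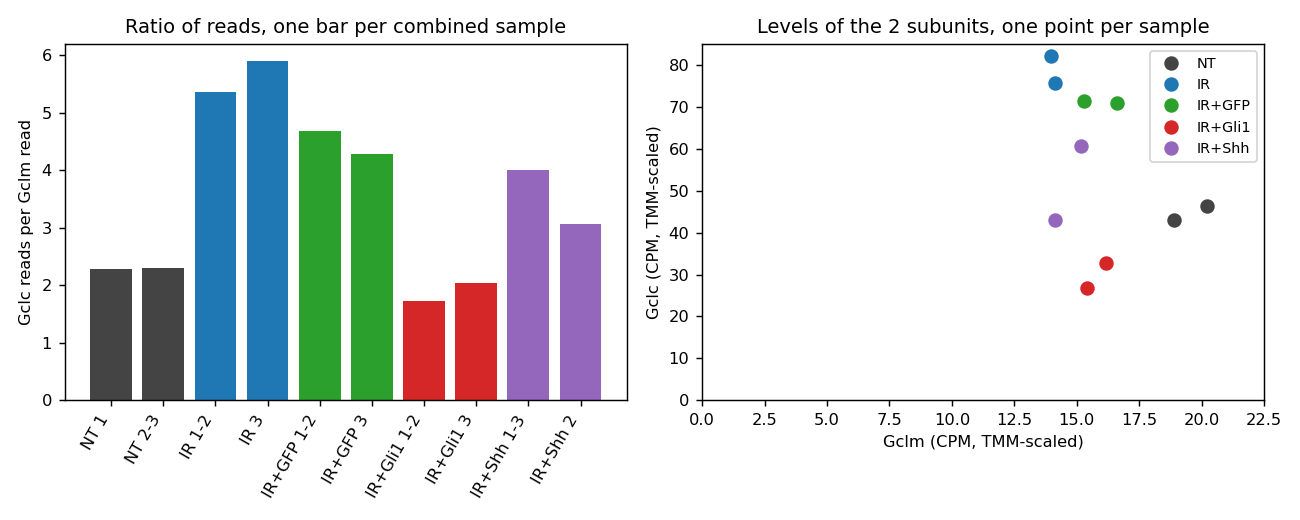
Left, Gclc reads per Gclm read in each of the 10 combined samples (bars from 0). Right, the levels of both subunits (CPM after TMM scaling) with 1 point per sample, where the samples spread over a wide range of Gclc while Gclm stays between 14.0 and 20.2.

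The thioredoxin system is represented by Txnrd1 (ENSMUSG00000020250, chr10:82833951-82897712, + strand), the cytosolic reductase that returns oxidized thioredoxin to its active form, and by Srxn1 (ENSMUSG00000032802, chr2:152105516-152111376, + strand), which restores overoxidized peroxiredoxins. Txnrd1 stood at 68.4 and 62.2 CPM in NT, 61.0 and 60.6 in IR, 61.4 and 68.9 in IR+GFP, 70.4 and 66.6 in IR+Gli1, and 59.3 and 61.2 in IR+Shh. It varied little, and its log2 differences lay between -0.19 and 0.10 in the 5 comparisons. Srxn1 stood at 21.3 and 21.1 CPM in NT, 20.5 and 18.1 in IR, 16.5 and 24.7 in IR+GFP, 20.3 and 24.2 in IR+Gli1, and 14.5 and 15.04 in IR+Shh. Both IR+Shh samples were lower than the 8 others. The log2 difference of IR+Shh was -0.48 ± 0.18 from IR+GFP (edgeR adjusted p 0.808) and -0.59 ± 0.18 from IR+Gli1 (0.0712), neither of which passed.

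Nqo1 (ENSMUSG00000003849, chr8:107388225-107403206, - strand) encodes a quinone reductase that is often used as a readout of NRF2 activity. It had 56 and 40 reads in NT, 10 and 16 in IR, 16 and 17 in IR+GFP, 70 and 25 in IR+Gli1, and 24 and 25 in IR+Shh. As levels these were 1.70 and 1.47 CPM in NT, 0.340 and 0.865 in IR, 0.682 and 1.05 in IR+GFP, 1.26 and 0.988 in IR+Gli1, and 1.04 and 0.922 in IR+Shh. NT was above all 8 irradiated samples. The log2 difference of IR from NT was -1.45 ± 0.44 (edgeR adjusted p 0.154), and -1.55 with an adjusted p of 0.295 without NT 2-3. The differences among the irradiated groups, between -0.21 and 0.56 with standard errors of 0.42 to 0.47, were not detectable at this depth. Gsta4 (ENSMUSG00000032348, chr9:78182774-78209349, + strand) encodes a glutathione transferase that clears the lipid peroxidation product 4-hydroxynonenal. It stood at 10.9 and 9.40 CPM in NT, 6.08 and 9.95 in IR, 8.02 and 6.70 in IR+GFP, 8.97 and 9.68 in IR+Gli1, and 9.54 and 11.8 in IR+Shh. The groups overlapped in 3 of the 5 comparisons, and no difference passed; that of IR+Shh from IR+GFP was 0.53 ± 0.23 (edgeR adjusted p 0.814).

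Hmox1 (ENSMUSG00000005413, chr8:75093621-75100589, + strand) encodes the inducible heme oxygenase, which splits heme into biliverdin, iron and carbon monoxide. It stood at 7.55 and 7.34 CPM in NT, 6.90 and 7.46 in IR, 6.48 and 9.04 in IR+GFP, 22.7 and 12.4 in IR+Gli1, and 8.41 and 6.78 in IR+Shh. The 2 IR+Gli1 samples were above the 8 others, which lay within 6.48 to 9.04 CPM, and IR+Gli1 1-2 was the higher of them. Hmox1 rose in IR+Gli1 against IR+GFP by 1.19 ± 0.27 on the log2 scale, a 2.29-fold higher level (edgeR adjusted p 0.0230). The rise was uneven: IR+Gli1 1-2 stood at 3.50 times IR+GFP 1-2, and IR+Gli1 3 at 1.38 times IR+GFP 3. Hmox1 was lower in IR+Shh than in IR+Gli1 by 2.33-fold (log2 -1.22 ± 0.27, edgeR adjusted p 0.0326). In IR against NT the difference was -0.06 ± 0.28, or -0.08 without NT 2-3, with overlapping samples.

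Hmox1 is strongly expressed by macrophages that take up red cells, and the summed macrophage markers were also highest in the IR+Gli1 samples. The 12 listed macrophage markers summed to 147 to 174 CPM in NT, 123 to 124 in IR, 100.5 to 142 in IR+GFP, 283 to 313 in IR+Gli1 and 180 to 190 in IR+Shh, and 7 of the 12 rose in IR+Gli1 against IR+GFP. The most abundant, C1qa, was at 54.8 ± 10.7 CPM in IR+Gli1 and 21.6 ± 6.3 in IR+GFP (SD, n = 2). Of the 12 macrophage markers 9 had a log2 difference above 0 in IR+Gli1 against IR+GFP. In IR+Shh against IR+GFP, where no gene passed, 11 of them did, and the difference of Hmox1 was -0.02 ± 0.28 (SE). Of the listed interferon response genes 10 of 10 rose in IR+Gli1 against IR+GFP, and of the NF-kB response genes 6 of 8. Monocyte and neutrophil markers rose in 4 of 5 tested, from sums of 3.41 to 6.77 CPM in IR+GFP to 50.01 and 179.8 in IR+Gli1, and T and NK cell markers in 5 of 7, from sums of at most 5.597 CPM to 31.8 and 80.6. Among all genes, 8.23% rose in this comparison and 5.71% fell. Erythroid markers summed to 105 to 139 CPM in NT, 37.6 to 54.6 in IR, 26.9 to 42.0 in IR+GFP, 10.1 to 14.7 in IR+Gli1 and 4.90 to 32.4 in IR+Shh, and 0 of 7 passed in IR+Gli1 against IR+GFP. In whole-gland RNA, more cells of a type and more RNA per cell cannot be told apart, and the part of these cells in the Hmox1 result was not tested. The call of IR+Gli1 over IR+GFP ended without IR+Gli1 1-2, where the log2 difference was 0.68 (adjusted p 0.129), and without IR+GFP 1-2 (0.96, adjusted p 0.189). The call of IR+Shh against IR+Gli1 also ended without IR+Gli1 1-2 (-0.70, adjusted p 0.160), IR+Shh 1-3 (0.161) or IR+Shh 2 (0.214).

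Among the enzymes that remove superoxide and peroxide, Sod2 (ENSMUSG00000006818, chr17:13006846-13040063, + strand) encodes the mitochondrial superoxide dismutase, which is also a well-known NF-kB target. It stood at 129 and 124 CPM in NT, 132 and 133 in IR, 143 and 151 in IR+GFP, 105 and 129 in IR+Gli1, and 147 and 131 in IR+Shh. The IR+Gli1 samples were below both IR+GFP samples. The log2 difference was -0.33 ± 0.12 (edgeR adjusted p 0.0953) and turned to 0.44 with total-count scaling. Over 18 alternatives it ranged from -0.49, without IR+Gli1 3, to 0.44. It passed in 4 of them, that of total-count scaling included. Cat (ENSMUSG00000027187, chr2:103453849-103485160, - strand) encodes catalase, the peroxisomal enzyme that breaks down hydrogen peroxide. It stood at 151 and 149 CPM in NT, 145 and 174 in IR, 137 and 175 in IR+GFP, 212 and 216 in IR+Gli1, and 150 and 175 in IR+Shh. Both IR+Gli1 samples were above the 8 others. The log2 difference from IR+GFP was 0.46 ± 0.14 (edgeR adjusted p 0.0642), with 0.45 and an adjusted p of 0.0240 in DESeq2, and 0.47 ± 0.13 with an adjusted p of 0.0429 where IR+GFP 1-2 was paired with IR+Gli1 1-2 and IR+GFP 3 with IR+Gli1 3. By these pairs the level in IR+Gli1 was 1.54 and 1.24 times that in IR+GFP. Over 18 alternatives the log2 difference of Cat from IR+GFP ranged from 0.29 to 1.24, and it passed in 8 of them. The difference of IR+Shh from IR+Gli1 was -0.40 ± 0.14 (edgeR adjusted p 0.119).

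Gpx3 (ENSMUSG00000018339, chr11:54902453-54910377, + strand) encodes the secreted glutathione peroxidase, a selenoprotein of plasma and extracellular fluid. It stood at 4.55 and 4.62 CPM in NT, 6.32 and 4.0 in IR, 3.75 and 5.54 in IR+GFP, 7.73 and 11.9 in IR+Gli1, and 11.4 and 12.5 in IR+Shh. All 4 samples with a Hedgehog gene were above the 6 others, and the IR+Gli1 and IR+Shh samples overlapped. Gpx3 rose in IR+Gli1 against IR+GFP by 1.08 ± 0.28 on the log2 scale, a 2.11-fold higher level (edgeR adjusted p 0.0343), and by the same pairs 2.06 and 2.14 times the IR+GFP level. The call ended without IR+GFP 1-2 (0.81, adjusted p 0.245), without IR+GFP 3 (1.37, 0.0510) or without IR+Gli1 3 (0.74, 0.0969), and limma-voom gave an adjusted p of 0.0549. The larger difference, 1.37 ± 0.28 or 2.59-fold in IR+Shh against IR+GFP, had an adjusted p of 0.436 in edgeR, in a comparison where no gene passed. DESeq2 gave it an adjusted p of 0.0164. IR+Shh and IR+Gli1 differed by 0.29 ± 0.27 (edgeR adjusted p 0.511).

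**Figure D3:**
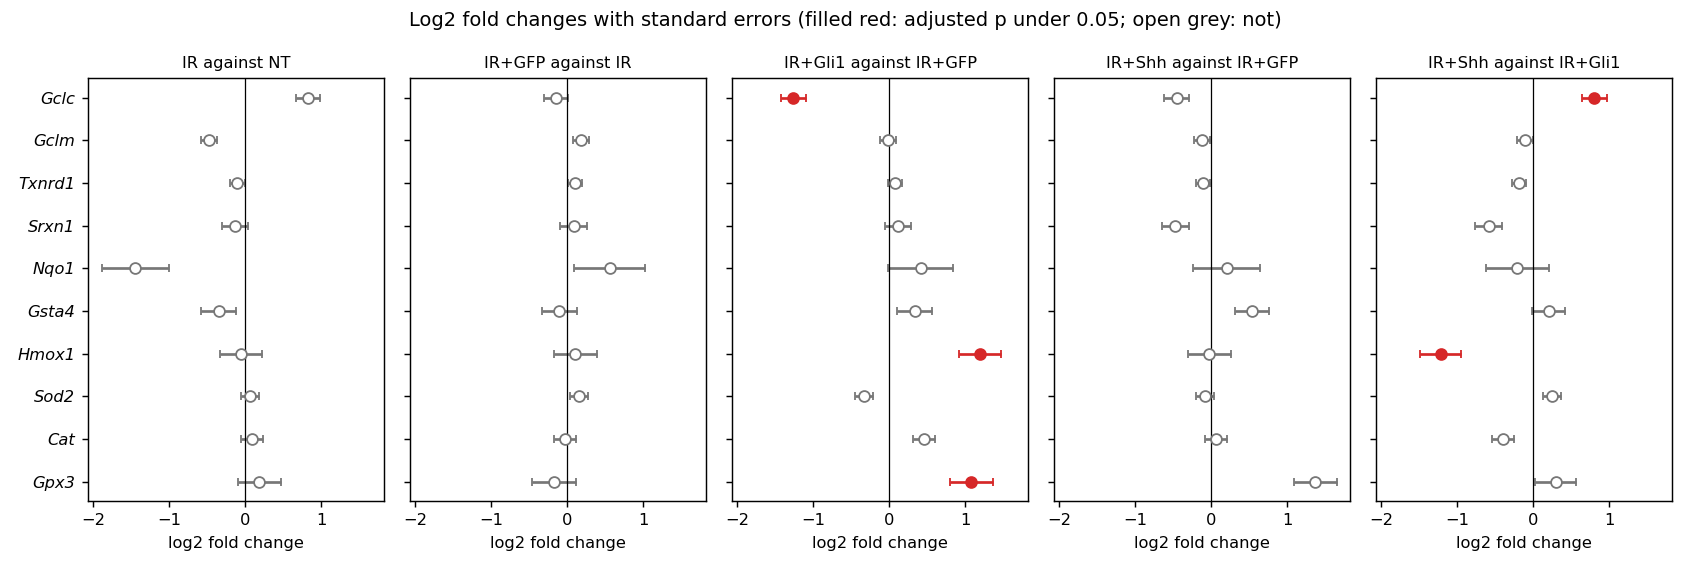
Log2 fold changes of the 10 genes in the 5 comparisons, with bars for standard errors; filled red points have an edgeR adjusted p under 0.05 and open grey points do not. Hmox1, Gpx3 and Gclc passed in IR+Gli1 against IR+GFP, and Hmox1 and Gclc in IR+Shh against IR+Gli1.

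Counted over the list, irradiation alone gave no call. In IR against NT 0 of the 10 genes passed in edgeR, where 0.678% of all genes did. At an unadjusted p under 0.05 there were 3 of 10, Nqo1, Gclc and Gclm, against 17.5% of all genes, while DESeq2 called 1 and limma-voom 0. The samples of the groups did not overlap for 2 genes that were higher in IR and 4 that were lower, where 23.9% and 27.3% of all genes were. Without NT 2-3 it was again 0 of the 10, with 21 of all genes called in place of 97. The median log2 difference of the 10 genes was -0.08, beside -0.02 for all genes.

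Transfer of GFP gave no call either. In IR+GFP against IR 0 of the 10 genes passed in edgeR, 0 had an unadjusted p under 0.05, and DESeq2 and limma-voom called 0, where edgeR passed 0.00% of all genes and 2.08% had an unadjusted p under 0.05. The largest difference was that of Nqo1, 0.56 ± 0.47. Groups did not overlap for 3 genes that were higher and 1 that was lower, against 16.9% and 15.9% of all genes.

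In IR+Gli1 against IR+GFP 3 of the 10 genes passed, 2 higher and 1 lower, where 13.9% of all genes passed, 8.23% higher and 5.71% lower. At an unadjusted p under 0.05 there were 5 of 10, against 29.5% of all genes. DESeq2 called 4 and limma-voom 2. Fitted on only the 4 samples compared, edgeR called 0 of the 10, and of all 13766 genes in that fit 1 rose and 0 fell. Its adjusted p were 0.0645 for Gclc, 0.137 for Hmox1 and 0.123 for Gpx3. The same kind of fit of IR+Shh against IR+Gli1 gave 0.108 for Gclc and 0.115 for Hmox1. There 1 of all 13823 genes was higher and 8 were lower. Groups did not overlap for 4 genes that were higher and 2 that were lower, beside 28.9% and 27.3% of all genes. The median of the 10 was 0.22, beside 0.01 for all genes. With total-count scaling 9 of the 10 rose and Gclc fell, at -0.49, while of all genes 9660 rose and 89 fell, against 1177 and 816 with TMM. The median of all genes was then higher by the 0.79 given above, and the order of the 10 genes was kept, as the plot of both scalings shows.

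**Figure D4:**
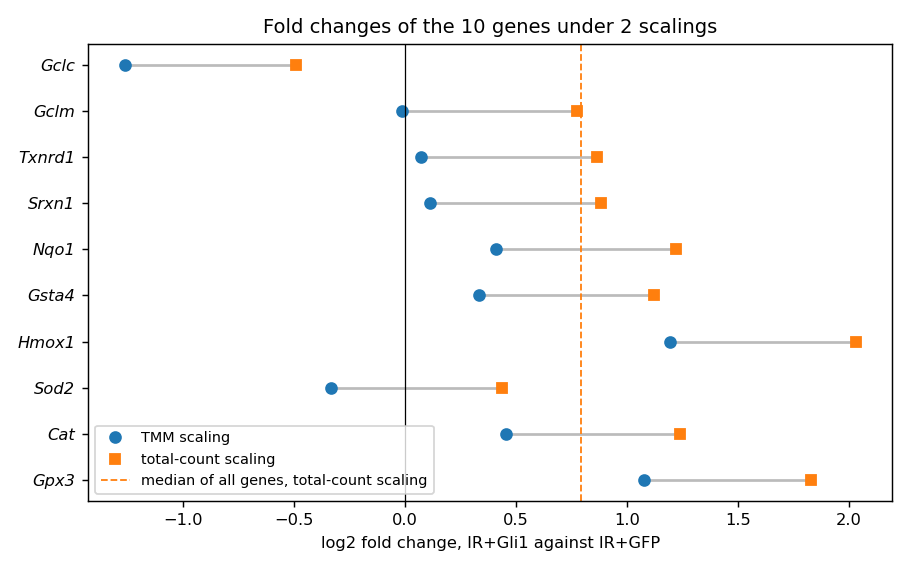
Log2 fold change of each gene in IR+Gli1 against IR+GFP with TMM scaling (circles) and with total-count scaling (squares). The dashed line marks the median of all tested genes under total-count scaling; Hmox1 and Gpx3 lie well above it and Gclc well below it.

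In IR+Shh against IR+GFP 0 of the 10 genes passed in edgeR, where 0.00% of all genes did. At an unadjusted p under 0.05 there were 4 of 10 (Gpx3, Gclc, Srxn1 and Gsta4), against 6.10% of all genes, while DESeq2 called 1 and limma-voom 0. Groups did not overlap for 2 genes that were higher and 4 that were lower, beside 21.7% and 20.4% of all genes. In IR+Shh against IR+Gli1 2 of the 10 passed, where 7.76% of all genes did: 1 higher, beside 2.76% of all genes, and 1 lower, beside 4.99%. At an unadjusted p under 0.05 there were 4 of 10, against 26.4% of all genes. Groups did not overlap for 2 genes that were higher and 5 that were lower, beside 28.8% and 29.7%. The comparisons of IR+Gli1 and IR+Shh with IR+GFP share the IR+GFP samples, so for the 10 genes only each comparison's own values are given.

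The regulators of the pathway were read from a list of 11 genes, all of them tested. Nfe2l2, which encodes NRF2 itself, stood at 66.1 and 63.6 CPM in NT, 95.1 and 96.3 in IR, 95.7 and 93.4 in IR+GFP, 107 and 80.5 in IR+Gli1, and 97.2 and 109 in IR+Shh. All 8 irradiated samples were above both NT samples, and IR exceeded NT by 0.56 ± 0.13 on the log2 scale (edgeR adjusted p 0.0936; 0.53 with an adjusted p of 0.269 without NT 2-3). Keap1 stood at 29.9 and 33.8 CPM in NT, 28.2 and 26.0 in IR, 31.6 and 37.3 in IR+GFP, 31.8 and 34.6 in IR+Gli1, and 27.3 and 26.3 in IR+Shh. IR and IR+Shh were the groups with the lowest Keap1, with differences of -0.23 ± 0.11 from NT (adjusted p 0.337; -0.14 without NT 2-3) and -0.36 ± 0.12 from IR+GFP (0.808) that did not pass in edgeR. Cul3, the scaffold of the ligase that KEAP1 serves, fell in IR+Gli1 against IR+GFP from 95.9 ± 8.2 to 66.5 ± 1.8 CPM (SD, n = 2; log2 -0.53 ± 0.10, edgeR adjusted p 0.0108), and turned to 0.26 with total-count scaling. Maff, a small MAF partner, stood at 3.90 ± 0.85 CPM in IR+Shh and 7.08 ± 0.26 in IR+Gli1 (log2 -0.86 ± 0.22, edgeR adjusted p 0.0439).

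The other antioxidant genes comprised 88 in 8 lists by role, regulators included, of which 82 were tested. In IR against NT 1 of the 82 passed, Ephx1, which encodes the microsomal epoxide hydrolase and lies at chr1:180976210-181020904. It stood at 40.7 and 42.6 CPM in NT, 211 and 232 in IR, 226 and 223 in IR+GFP, 259 and 227 in IR+Gli1, and 257 and 218 in IR+Shh. Every irradiated sample was thus far above both NT samples, whatever had been transferred. Ephx1 rose by 2.41 ± 0.13 on the log2 scale, or 5.32-fold, in IR against NT (edgeR adjusted p 0.00011), with 2.44 without NT 2-3 (adjusted p 0.00175), and the call held in all 17 alternatives. Ephx1 is a target of NRF2 and also of other factors, and its difference stood beside 0 of 10 calls in the genes listed at the start. Of all genes 0.678% passed in this comparison. At an unadjusted p under 0.05 there were 16 of the 82, beside 17.5% of all genes, and DESeq2 called 5. In IR+GFP against IR and in IR+Shh against IR+GFP 0 of 82 passed in edgeR, with 2 and 8 at an unadjusted p under 0.05, beside 2.08% and 6.10% of all genes. DESeq2 called 0 and 1, and limma-voom 0 in both.

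In IR+Gli1 against IR+GFP 16 of the 82 passed, 9 higher and 7 lower, which is 19.5% beside 13.9% of all genes, and their median was 0.03. Genes of heme and iron handling made up 3 of the 9: Fth1, the heavy chain of the iron store ferritin, rose from 337 ± 43 to 546 ± 54 CPM (log2 0.70 ± 0.14, edgeR adjusted p 0.0139), and Blvra and Blvrb, the biliverdin reductases that follow heme oxygenase, by 0.51 ± 0.14 (0.0375) and 0.62 ± 0.12 (0.0119). In this list 3 of 8 rose, 0 fell and 5 did not pass. In glutathione recycling and export Gsr, the glutathione reductase, rose by 0.54 ± 0.10 (0.0104), and Abcc1, a transporter of glutathione conjugates, by 0.56 ± 0.11 (0.0124), 2 of the 10 tested. Reads with several alignments were not counted, which can lower genes with near-identical copies, such as Fth1. Ferritin is also abundant in macrophages, and the summed macrophage markers given above were also highest in the IR+Gli1 samples. Their part in these changes was not tested.

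The remaining changes included rises and falls. Txn1, the cytosolic thioredoxin, rose by 0.65 ± 0.14 (edgeR adjusted p 0.0180), while Msra, which repairs oxidized methionine, fell from 16.6 ± 0.52 to 10.1 ± 0.34 CPM (log2 -0.71 ± 0.14, 0.0109). Gpx2, the glutathione peroxidase of epithelia, rose by 2.32 ± 0.57 (0.0380) from 3.97 ± 0.13 to 19.7 ± 9.8 CPM, while Prdx6 fell (-0.43 ± 0.12, 0.0370). Among the glutathione transferases, 14 of them tested, Mgst1 rose from 18.2 ± 0.14 to 46.1 ± 20.1 CPM (1.34 ± 0.28, 0.0196) and Gstk1 fell (-0.81 ± 0.22, 0.0439; 0.0538 with the samples paired as above). In NADPH supply the malic enzyme Me1 rose from 5.71 ± 1.3 to 13.3 ± 3.9 CPM (1.23 ± 0.24, 0.0119) and Nnt, the mitochondrial transhydrogenase, fell (-0.54 ± 0.15, 0.0394). Trim16 (-0.76 ± 0.16, 0.0163) and Tsku (-1.29 ± 0.22, 0.00836) fell in the last list, of other detoxification targets. With total-count scaling Prdx6, Msra, Nnt and Trim16, as well as Cul3, no longer lay below 0. Each of these 16 calls ended in at least 2 of the 4 fits that left out 1 sample of the groups compared. The markers of the granular convoluted tubule summed to 30257 to 60231 CPM in IR+Gli1 and 144415 to 162705 in IR+GFP, and 8 of the 9 fell. Of the 7 tested acinar markers 3 fell, and of all genes 5.71% did. The part of this shift in gland cell markers in the changes of Gclc and the other genes was not tested.

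**Figure D5:**
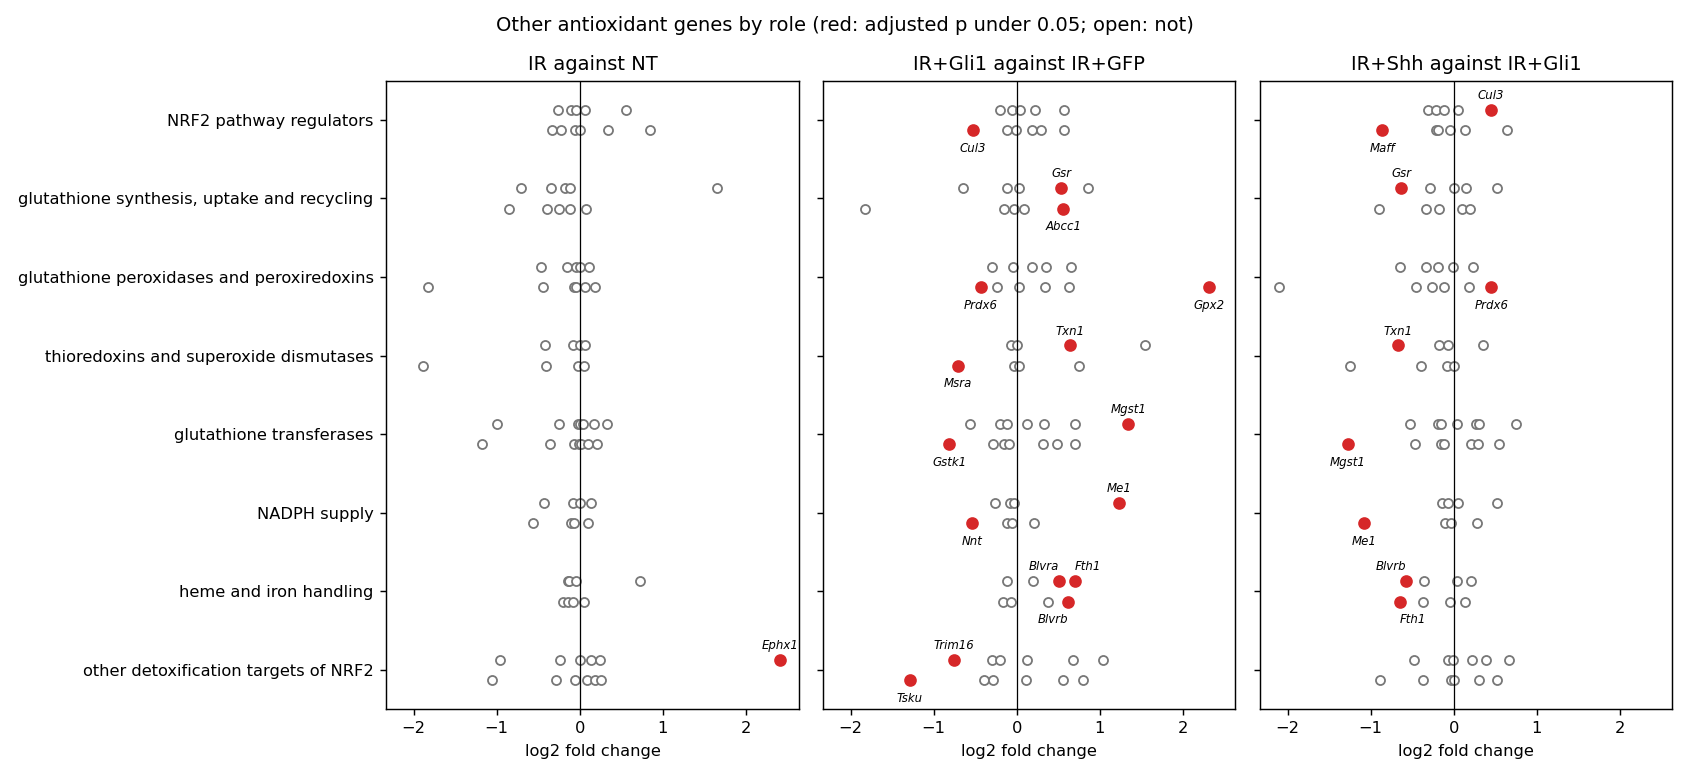
Log2 fold changes of the 82 tested antioxidant genes by role in 3 comparisons, with filled red, named points for an edgeR adjusted p under 0.05 and open points for the rest. Ephx1 alone is called in IR against NT. The other 2 comparisons share the IR+Gli1 samples with opposite sign, so their signs are not independent.

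In IR+Shh against IR+Gli1 9 of the 82 passed, 2 higher and 7 lower, which is 10.98% beside 7.76% of all genes. Cul3 (0.45 ± 0.10, edgeR adjusted p 0.0318) and Prdx6 (0.45 ± 0.12, 0.0456) were higher in IR+Shh, both turning below 0 with total-count scaling. Mgst1 was the gene with the largest difference among those lower, at 19.1 ± 3.2 CPM in IR+Shh and 46.1 ± 20.1 in IR+Gli1 (-1.28 ± 0.28, 0.0355), followed by Me1 (-1.08 ± 0.24, 0.0295). Txn1 (-0.67 ± 0.14, 0.0264), Fth1 (-0.64 ± 0.14, 0.0301), Gsr (-0.63 ± 0.10, 0.0131) and Blvrb (-0.57 ± 0.12, 0.0267) were lower too. Each of the 9 calls ended in at least 3 of the 4 fits that left out 1 sample of the groups compared. In IR+Shh these genes stood near their IR+GFP levels, such as 349 ± 5.8 and 337 ± 43 CPM for Fth1 and 20.7 ± 0.71 and 22.1 ± 2.1 CPM for Gsr.

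Similarity of pattern was described by Pearson's r of log2 CPM over the 10 samples with 13189 named protein-coding genes, which share libraries and scaling with the gene they are set against. The closest to Hmox1 were Actb (r = 0.981), which encodes a cytoskeletal actin, and Tnfaip3 (0.977), an NF-kB target that restrains NF-kB signalling. The closest to Gclc were Ppp1r13b (0.960) and Ubqln2 (0.959), and to Gclm Mvd (0.957), an enzyme of cholesterol synthesis, and Mrps14 (0.951). For Txnrd1 they were Ticam2 (0.972) and Lgals3 (0.917), and for Srxn1 Fam83g (0.933) and Spryd7 (0.930). Nqo1 was nearest to Snrpd3 (0.940) and Ndufs6 (0.903), Gsta4 to Trmo (0.873) and Ccdc66 (0.872), and Sod2 to Esrp2 (0.965) and Zfp322a (0.959). Gpx3 was nearest to Gpr20 (0.940) and Tsc22d3 (0.915), the latter a glucocorticoid-induced gene, and Cat to Alox12 (0.955) and Glipr1 (0.953). None of the 20 nearest genes was itself one of the 10 genes or of the other antioxidant genes listed. These 10 and the 82 others tested were a small part of the 13189 genes compared, so this count says little about their patterns.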

How the data were processed

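The deposited tables hold raw read counts per Ensembl gene for 15 libraries of total RNA; per the labels' protocols, RNA was purified with RNeasy columns, made into TruSeq libraries and sequenced on an Illumina HiSeq. Tools named in the submitters' processing notes are HTSeq 0.10.0, TopHat2 2.0.13, Bowtie 0.12.2 and DESeq2, and they give mm10 and GRCm38 as builds. Whether counting used strand is not given in the sources used here, so reads of overlapping antisense genes cannot be told apart. Reads with several alignments were not counted.

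Libraries with a mean chi-square per gene under 1 (over genes whose summed count was 20 or more) were merged by the rounded mean; the 5 merged pairs had 0.215 to 0.337, other pairs within a group 22.0 to 223. Genes passing filterByExpr (14300) were scaled with TMM, and edgeR 4.0.16 was run on the 10 samples of all groups in 1 fit (under R 4.3.3; robust quasi-likelihood, 5 residual degrees of freedom, common biological coefficient of variation 0.191, prior count 2). Tests were two-sided and adjusted with Benjamini-Hochberg over all genes; limma 3.58.1 and DESeq2 1.42.0 were alternatives, as were other scalings, filters, library merging, a replicate block and leaving out each sample. The alternatives with IR and IR+GFP as 1 group, and with IR+GFP paired with IR+Gli1, were chosen after seeing the data. Same-numbered libraries of IR+GFP and IR+Gli1 deviated together from their group means (r 0.330 to 0.395), those of other groups did not all do so. Symbols came from GENCODE vM21, which matched 96.0% of IDs, and start-site sequences from RefSeq. The procedure was tested on simulated data with few changed genes, in 1 group only, and the same spread for all genes and groups. In IR+Gli1 against IR+GFP 13.9% of all genes passed, so the simulation does not cover the conditions of that comparison.

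The 10 genes and the other lists were chosen with earlier results of these data known. Named beside the 10 genes were Nfe2l2, Keap1, and up to 4 genes per list that passed, by smallest adjusted p. For each of the 10, the 2 genes of highest Pearson r were named.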

Additional observations from a re-analysis of the deposited data

Results flagged for a closer look

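The effects of Gli1 and Shh transfer, each taken against IR+GFP, differed for 2 of the 10 genes, beside 7.76% of all genes. The test is that of IR+Shh against IR+Gli1, since the shared IR+GFP samples cancel. The difference, Shh effect minus Gli1 effect on the log2 scale, was -1.22 for Hmox1 and 0.80 for Gclc. In the lists of other antioxidant genes it was 0.45 for Cul3, 0.45 for Prdx6, -0.86 for Maff, -0.63 for Gsr, -0.67 for Txn1, -1.28 for Mgst1, -1.08 for Me1, -0.57 for Blvrb and -0.64 for Fth1. Each had an edgeR adjusted p under 0.05, and each passed in at most 1 of the 4 fits that left out 1 sample; Hmox1 and Gclc also lost the call with only the groups compared. In the fit of only the groups compared, 1 of all 13823 genes was higher and 8 were lower. With total-count scaling the value was 0.17 for Gclc, and Cul3 and Prdx6 turned to -0.20 and -0.19.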

How the results depend on the processing

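Each group held 2 samples, and where a sample was left out the lone sample was assumed to vary like the other groups. The number of the 10 genes past the threshold in IR against NT was 0, and 1 with total-count scaling, with DESeq2, with only the groups compared, without IR+GFP 3 and IR+Gli1 3, or with IR and IR+GFP as 1 group, and 3 without the filter on low counts, with 15 separate libraries or with these and a replicate block. In IR+Gli1 against IR+GFP it was 3, and 10 with total-count scaling, 0 with only the groups compared, 5 with 15 separate libraries or with the replicate block, and 1 to 3 when a sample was left out. In IR+Shh against IR+GFP it was 0, and 2 without the filter on low counts, and 1 with DESeq2, with only the groups compared, with 15 separate libraries or with the replicate block. In IR+Shh against IR+Gli1 it was 2, and 6 with total-count scaling, 0 with only the groups compared, 6 with 15 separate libraries or with the replicate block, and 0 to 2 when a sample was left out. Counts over all genes moved too. In IR+Gli1 against IR+GFP, 9660 of 14300 genes rose and 89 fell with total-count scaling. With 15 separate libraries 3378 of 14121 rose and 3140 fell there. That fit gave 1921 and 2233 in IR against NT, and 281 and 257 in IR+Shh against IR+GFP. In IR+Shh against IR+Gli1, 84 rose and 8008 fell with total-count scaling, and 2871 and 3194 with 15 separate libraries. The 15-library fits count libraries merged elsewhere as samples of their own. The deviations from the group means had an r above 0.1 in 3 of 30 pairs with the same number. All 3 lay between the GFP and the Gli1 libraries (r 0.330 to 0.395). They are not independent of each other, since libraries 1 and 2 were merged in each of these groups. The other groups were not taken as paired. A replicate block for that pairing, added after seeing the data, called 4 of the 10 genes, Cat being the one gained, and Gstk1 lost its call. Among the 15 libraries, 7 had their highest correlation within their number. Total-count scaling turned the sign in IR+Gli1 against IR+GFP to 0.77 for Gclm, 0.44 for Sod2, 0.26 for Cul3, 0.73 for Keap1 and 0.077 for Msra. It also turned to 0.81 for Nfe2l2, 0.24 for Nnt, 0.36 for Prdx6 and 0.00069 for Trim16. In IR+Shh against IR+Gli1 it turned to -0.38 for Sod2, -0.32 for Gpx3 and -0.44 for Gsta4. For Cul3, Nfe2l2 and Prdx6 it turned there to -0.20, -0.54 and -0.19. In IR+Shh against IR+GFP it turned to 0.023 for Gclm, 0.11 for Hmox1, 0.057 for Sod2 and 0.033 for Txnrd1. This scaling moved the median of all genes by 0.79 in IR+Gli1 against IR+GFP and by -0.65 in IR+Shh against IR+Gli1. Of 840 values of the 10 genes under alternatives, 720 kept their direction and side of the threshold or stayed uncalled within 1 spread. A further 49 moved while uncalled, 50 gained a call, 18 lost one and 3 turned in sign with a call in either fit. Among the 701 values called in neither fit 44 also changed sign, and these are counted with the 720 or the 49. The cause of these differences was not tested. Depth limits Nqo1, with 10 to 70 reads per sample.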
